A study of Xenopus tropicalis with 40 samples.

Results

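Class o transcripts were described here, which are assembled RNAs that the transcript comparison placed on the strand of an annotated gene but gave no junction in common with it. The members were the 2604 gene models that carry the class code o, of 159469 in the catalogue (1.63%, Wilson 95% interval 1.57% to 1.70%). They bore 800 gene names at 856 loci, and 698 of these names were full gene symbols. The members were chosen by the code, and so by the exon positions behind it, which makes the absence of shared junctions a property of the choice and not a result.

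The catalogue came from whole embryos of the western clawed frog Xenopus tropicalis, an outbred stock, sequenced as polyadenylated RNA with the strand kept. The 40 libraries covered 23 stages, from the 2-cell embryo to the tadpole of stages 44 and 45, in 2 clutches. Clutch 1 gave 16 libraries and clutch 2 gave 24. The assembly was pooled over the libraries, so no value belongs to a stage or clutch, library depth is unknown, and no value below has replicates.

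A vertebrate gene is usually copied into RNA as exons separated by introns, and an assembled RNA is matched to an annotated gene first by the splice junctions that both hold. Genes annotated with a single exon offer no junction to match, so a spliced RNA that covers such a gene can be placed by overlap alone. Many regulators of the embryo are of this kind in vertebrates, among them several Sox and forkhead factors, and others, such as the neurotrophin gene bdnf in mammals, carry their protein on 1 exon to which alternative, distant first exons are spliced.

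In these data the class o transcripts fell into very different sorts of RNA. Those that shared exon bases with single-exon models, such as those of bdnf, gja1, foxb1 and sox2, were mostly spliced RNAs that covered most of the model. They extended by up to 159663 bases past its 5′ end and up to 218385 bases past its 3′ end. These distances are counted from the model, which for some genes covers only a part of the gene. Those that shared exon bases with models of several exons, as at lbr and rap1b, were mostly RNAs of 2 exons. They met the last or the first exon of the model. The genes tulp3, slc39a3 and ifit5 are among the 15 gene symbols with most class o transcripts. There the class o transcripts were mostly long RNAs of many exons. These overlapped the span of a very wide model and shared no exon base with it.

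Each class o transcript was compared with the models listed for its own gene name, on its own scaffold and strand. A listed model is one with exactly the annotated junction chain, most of them taken over from the annotation itself. By this comparison 265 transcripts (10.2%, 9.07% to 11.4%) of 221 genes shared exon bases with a listed model. A further 692 (26.6%, 24.9% to 28.3%) of 73 gene names overlapped the span of a listed model and shared no exon base with it. For 736 (28.3%, 26.6% to 30.0%) of 316 genes no model was listed in the span, but exon bases were shared with a class j transcript, an assembled RNA with a new junction chain in the same gene. Another 289 (11.1%, 9.95% to 12.4%) had such a class j transcript in their span without a shared exon base. The last 622 (23.9%, 22.3% to 25.6%) had neither a listed model nor a class j transcript of their gene in their span.

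Overlap of an exon could therefore be shown for the first and the third of these groups. For the 692, the listed model went against the name of the class, although 7 of them shared exon bases with a class j transcript of the gene. In 685 of the 692 the listed model had another locus identifier than the transcript. Whether another annotated model gave them their name and code was not tested. For the 289 and the 622, the annotated model that gave the gene name was not analysed here, so which part of the gene they overlap could not be measured. Transcripts of 1 gene share their exons and are not independent, and the intervals cover counting error only.

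**Figure D1:**
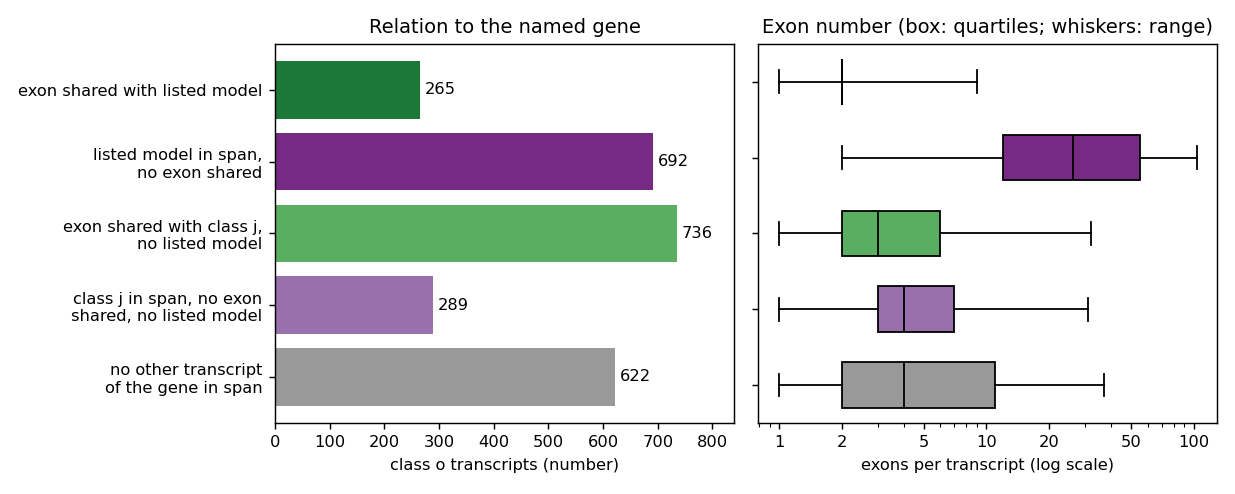
Number of class o transcripts in each relation to the gene they are named for (left, bars) and their exons per transcript on a log axis (right, box from the lower to the upper quartile with a line at the median, whiskers over the range). The 692 transcripts in the span of a listed model without a shared exon base had a median of 26 exons. The 265 that shared exon bases with a listed model had a median of 2. Of the 692, LOC100135382, tulp3 and slc39a3 gave 444.

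Class o transcripts had a median of 4 exons (quartiles 2 and 16, range 1 to 103) and a median length of 2079.5 bases. Class j transcripts had a median of 10 exons and 2409.5 bases, and transcripts outside annotated genes a median of 7 exons and 2024 bases. The spread among class o was wide: 63 transcripts (2.42%, 1.90% to 3.08%) had 1 exon, while 519 (19.9%, 18.4% to 21.5%) had at least 20. Among class j the share with at least 20 exons was 15.7%. With 1 transcript taken per gene, that with the largest span, the median was 2 exons for class o and 9 for class j. No test between classes was made, since the class codes rest on the same exon positions.

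The relative weight of a transcript, a value between 0 and 1 in the deposited table, was exactly 1 for 1933 class o transcripts (74.2%, 72.5% to 75.9%). It was 1 for 30.2% of class j transcripts and for 87.9% of those outside annotated genes. Among class o the share ran from 38.9% where exon bases were shared with a listed model to 94.9% where the model lay in the span without a shared base.

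Single-exon models accounted for 127 of the 265 transcripts that shared exon bases with a listed model (47.9%, 42.0% to 53.9%), at 102 genes. Of 445 genes with a listed single-exon model, 102 (22.9%, 19.3% to 27.0%) had a class o transcript that shared exon bases with such a model. Of 3495 genes with a listed multi-exon model, 119 (3.40%, 2.85% to 4.06%) had one on such a model. The gap follows in part from the rule of the class, because a spliced RNA over a single-exon model has no junction to share.

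These 127 transcripts covered most of their model, with a median of 99.97% of its bases (quartiles 94.4% and 100%). They reached past its 5′ end in 115 cases (90.6%, 84.2% to 94.5%) and past its 3′ end in 99 (78.0%, 70.0% to 84.3%), and past both in 88 (69.3%). The 102 with at least 2 exons carried introns on different sides of the model, and the shares below are of all 127. An intron lay upstream of the model or joined into it from upstream in 56 transcripts (44.1%, 35.8% to 52.8%). In 36 (28.3%, 21.2% to 36.7%) an intron led from the model or from beyond its end to a downstream exon, and in 18 (14.2%, 9.16% to 21.3%) an intron lay inside the model. The median of the longest upstream intron was 1973 bases, with a range of 58 to 159583.

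The genes with the longest 5′ extension, by the rule for named genes, began with gja1, which encodes the gap junction protein connexin 43. Its model is 1140 bases long on the plus strand of scaffold GL172808, from 206147 to 207286. One class o transcript of 4 exons began 159663 bases upstream and the other, of 2 exons, 159623 bases upstream, and both contained the whole model and ended 497 bases past its 3′ end. The 2-exon form spanned 159583 bases with its single intron. At LOC100125092 a 2-exon transcript began 106727 bases before a 1281-base model. At fut9, a fucosyltransferase gene whose enzyme makes the Lewis x glycan, a 4-exon transcript began 96720 bases before a 1080-base model and ended with it.

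The genes of this and the next paragraph were picked with their values in view. At bdnf, which encodes a neurotrophin that keeps neurons alive and shapes synapses, 2 class o transcripts of 2 exons each carried 844 of the 846 bases of the model on the minus strand of scaffold GL172945, from 289840 to 290685. Their first exons began 29686 and 30768 bases upstream, their introns were 29388 and 30593 bases long, and both ended 106 bases past the model. The transcripts thus shared an acceptor site and a 3′ end and differed in their first exon. At nfil3, which encodes a leucine zipper transcription factor, 2 transcripts began 16545 and 16644 bases upstream and ended exactly with the model. At mterf, a mitochondrial transcription termination factor gene, 3 transcripts with separate first exons began 332, 734 and 1150 bases upstream, and each shared 1645 of the 1647 bases of the model.

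At several single-exon models of transcription factors the transcripts began nearer to the model. At foxb1, a forkhead gene of the developing brain, the 2 transcripts began 518 and 768 bases upstream and shared 2050 and 1936 of the 2056 bases of the model. At sox2, a factor of the neural plate and of pluripotent cells, 2 of the 5 transcripts shared exon bases with the model. These began 220 and 1015 bases upstream and shared 1868 and 2028 of 2222 bases, and both had an intron inside the model. The other 3 shared no base with it, and their nearest exons lay 6784 to 8823 bases from the model. At sox18, a factor of blood and lymph vessels, a 2-exon transcript began 1423 bases upstream and contained all 1766 bases of the model. At foxc1 the 2 transcripts began 166 and 1241 bases upstream, and at sox1 a transcript began 170 bases upstream. The only intron of each of these lay inside the model, as did that of the sox2 transcript that began 1015 bases upstream. These transcripts thus had no separate upstream exon. Extensions at the 3′ end reached further at pou3f4 (12820 bases) and foxd4l1.1 (7789 bases), which also encode transcription factors. At 2 genes for secreted inhibitors the extensions were likewise short. At cer1, which encodes the secreted inhibitor Cerberus, an upstream exon was spliced in front of the whole 694-base model, 382 bases before its start. At nog, which encodes the bone morphogenetic protein antagonist Noggin, the transcript extended 569 bases past the 5′ end and 530 past the 3′ end but shared 492 of the 669 bases of the model.

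**Figure D2:**
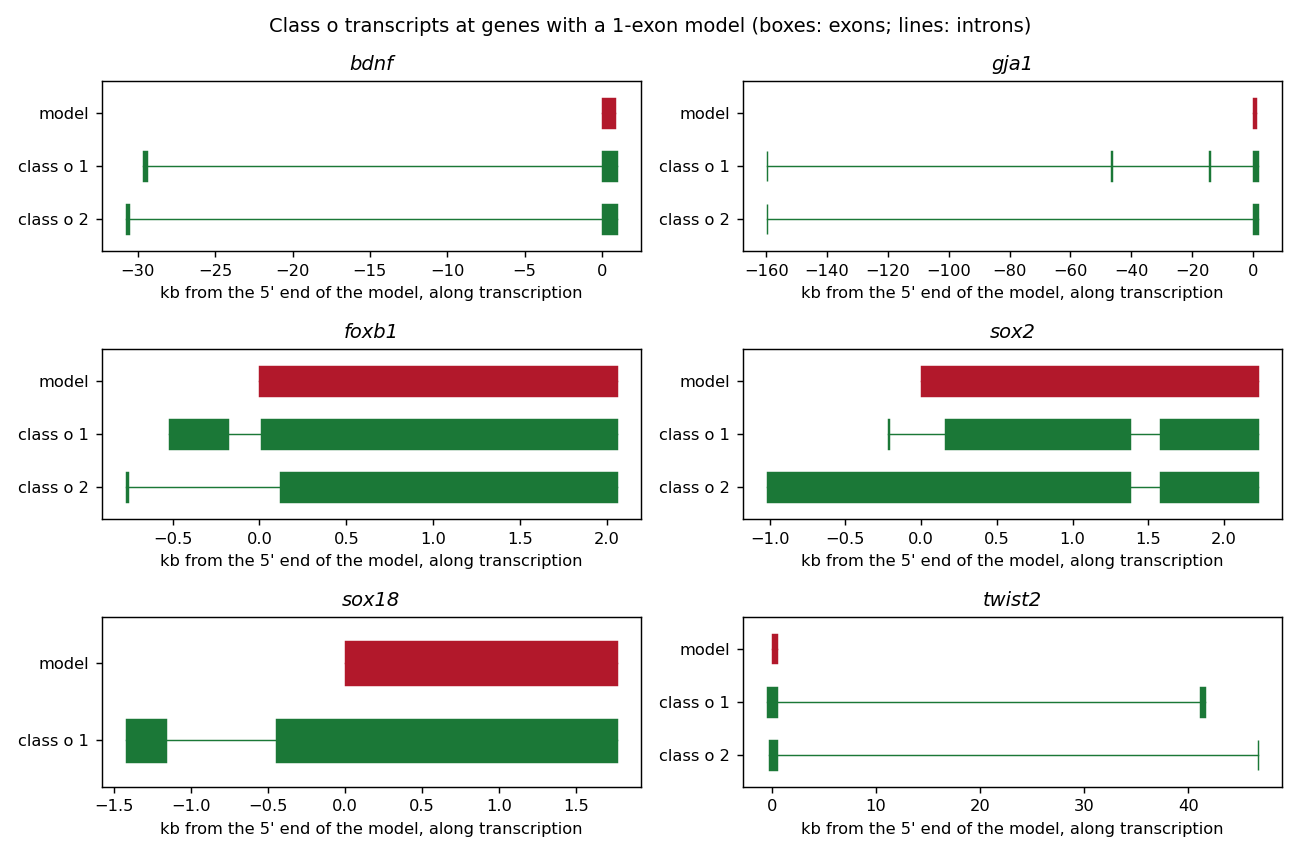
Exon maps of the single-exon model (red) at 6 genes and of the class o transcripts (green) that shared exon bases with it. Boxes are exons and lines are introns, in kilobases from the 5′ end of the model along transcription. The first exons lay 29686 and 30768 bases upstream at bdnf and 159663 and 159623 bases upstream at gja1, while the further exons of twist2 lay downstream.

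The longest 3′ extension was at scfd2, a gene of the Sec1 family of vesicle traffic proteins. A 9-exon transcript shared 823 of the 932 bases of the model and ended 218385 bases past it, and a 6-exon transcript ended 55582 bases past it. At abtb2 a 2-exon transcript ended 54193 bases past the model. At twist2, a basic helix-loop-helix factor of mesenchyme, both transcripts contained the 489-base model and were spliced to separate last exons, with ends 41145 and 46196 bases downstream. At zfyve28 the last exon ended 32989 bases past a 261-base model. Whether the models of scfd2, abtb2 and zfyve28 cover the whole gene was not tested. Their distances are thus past the model and are not shown to be past the gene. At rnf182, which encodes a ubiquitin ligase of the RING family, a 4-exon transcript reached 10956 bases past the 5′ end and 30670 bases past the 3′ end, and a second one shared that 5′ end and ended with the model.

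Not all single-exon models stood for genes of 1 exon. Their median length was 681.5 bases, with quartiles of 281 and 1641.75 bases and a minimum of 80. Models of 137 bases at cdk4, a cell cycle kinase gene, of 94 bases at rps12 and of 83 bases at rps13, both ribosomal protein genes, belong to genes that hold several exons in humans. The class o transcript of cdk4 began 6844 bases upstream with 3 exons, and those of rps12 and rps13 were unspliced RNAs of 1852 and 1086 bases. All of these genes were picked with their values in view. Of the 102 distinct single-exon models, 41 (40.2%, 31.2% to 49.9%) had a length divisible by 3. Of all listed single-exon models from the annotation, which include these, 215 of 507 (42.4%, 38.2% to 46.7%) did.

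Multi-exon models were overlapped by the other 138 transcripts, and here the place of the overlap could be read. The last exon was met by 86 (62.3%, 54.0% to 70.0%), the first by 52 (37.7%, 30.0% to 46.0%) and an internal exon by 9 (6.52%, 3.47% to 11.9%). Among the 61 transcripts of relative weight 1, 50.8% (38.6% to 62.9%) met the first exon and 44.3% (32.5% to 56.7%) the last. These intervals overlap, and rap1b and wbp1 alone gave 4 and 5 of the transcripts on a first exon. Some met more than 1 exon, but 130 (94.2%, 89.0% to 97.0%) touched a single exon of a model whose median exon number was 6. The transcripts themselves had few exons: 107 had 2 exons (77.5%) and 127 were spliced (92.0%). They shared a median of 40.5% of the bases of the model. Many lay almost wholly in the model exon, as at akirin1 (5217 of 5225 bases) and akap17a (2539 of 2547), so their other exon held few bases. At others most bases lay outside the model, as in 1 transcript of rap1b (86 of 329 bases shared). The genes akirin1, akap17a and rap1b were picked with their values in view. Over all 265 transcripts, single-exon models included, the shared part of the transcript had quartiles of 39.5% and 98.1%. By comparison, of 10767 class j transcripts with a listed model, 95.7% met an internal exon, which the shared junction of that class favours.

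The 3′ end was often held in common. Of the 86 transcripts on a last exon, 71 (82.6%, 73.2% to 89.1%) ended at exactly the same base as the model, and 60 (69.8%) lay within its ends. This share differed with the source of the model, which for 72 of the 138 transcripts was itself assembled in the catalogue. The 3′ end was equal in 49 of 50 transcripts on the last exon of an assembled model (98.0%, 89.5% to 99.6%) and in 22 of 36 on that of a model from the annotation (61.1%, 44.9% to 75.2%). Over all 138 transcripts the 3′ end was equal in 51.4%, and over the 10767 class j transcripts with a listed model in 70.9%. At lbr, the lamin B receptor gene of the inner nuclear membrane, 4 transcripts of 1282 to 2229 bases lay on the minus strand of scaffold GL173164. They shared 1244 to 2056 bases with the last exon of a 13-exon model. All 4 ended with it, and they spanned 3169 to 25569 of its 34644 bases. At gnai2, a G protein subunit gene, 2 transcripts of 2316 and 2705 bases met the last exon of an 8-exon model and ended with it. They shared 2305 and 2693 bases with that exon. At des.1, a desmin gene of muscle, 2 transcripts of 1566 and 1610 bases shared 1558 bases of the last of 9 exons. At trub2, a pseudouridine synthase gene, 2 transcripts of 3046 and 3271 bases shared 2829 and 2919 bases of the last of 9. The models of lbr, gnai2 and trub2 were assembled ones and that of des.1 came from the annotation. These 4 genes were picked with their values in view.

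Upstream ends were less often held in common. Of the 52 transcripts on a first exon, 30 (57.7%, 44.2% to 70.1%) began upstream of the model and 12 (23.1%, 13.7% to 36.1%) began at the same base. At rap1b, a small GTPase gene, 4 transcripts shared 86 bases of the first of 7 exons, began 128 to 634 bases upstream, and spanned 462 to 9067 bases, against 35543 for the model. At wbp1 there were 6 transcripts on the first exon of a 2-exon model, more than at any other gene with a shared model exon. They began between 196 bases upstream and 21 bases inside the model, and 5 of them ended at position 83698 of scaffold GL173993, while the model ended at 91909. At ppm1h, a protein phosphatase gene, 2 transcripts began 209 bases upstream of an 8-exon model that spans 95721 bases and themselves spanned 2180 and 2989 bases. The smallest overlap was 2 bases, at an internal exon of sft2d2. These genes, too, were picked with their values in view.

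Of the 5 genes with the longest 5′ extension, atf5.2 and zhx2 had multi-exon models. At atf5.2, a basic leucine zipper factor gene, a 2-exon transcript began 31807 bases upstream and shared 1868 bases of the last of 3 exons. At zhx2, a gene of the zinc finger and homeobox family, a 4-exon transcript began 31612 bases upstream and shared 3493 bases. Both ended with their model.

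Over the 265 transcripts with a shared model exon, 157 (59.2%, 53.2% to 65.0%) reached past the 5′ end, 120 (45.3%, 39.4% to 51.3%) past the 3′ end, 92 (34.7%) past both and 80 (30.2%, 24.98% to 36.0%) past neither. The median extension was 444 bases at the 5′ end (quartiles 160 and 2578) and 765 bases at the 3′ end (quartiles 162.75 and 2288). These shares join different groups: past the 5′ end were 90.6% over single-exon models and 30.4% (23.4% to 38.6%) over multi-exon models, and past the 3′ end 78.0% and 15.2% (10.2% to 22.1%). Over the multi-exon models from the annotation, 30 of 66 (45.5%, 34.0% to 57.4%) passed the 5′ end and 19 (28.8%, 19.3% to 40.6%) the 3′ end, and over the assembled ones 12 of 72 (16.7%, 9.80% to 26.9%) and 2 (2.78%, 0.765% to 9.57%). Of class j transcripts with a listed model of either source, 33.6% passed the 5′ end and 14.2% the 3′ end. An exon read through a whole intron of the model in 5 transcripts (1.89%), and 25 (9.43%, 6.47% to 13.6%) had an intron inside a model exon.

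**Figure D3:**
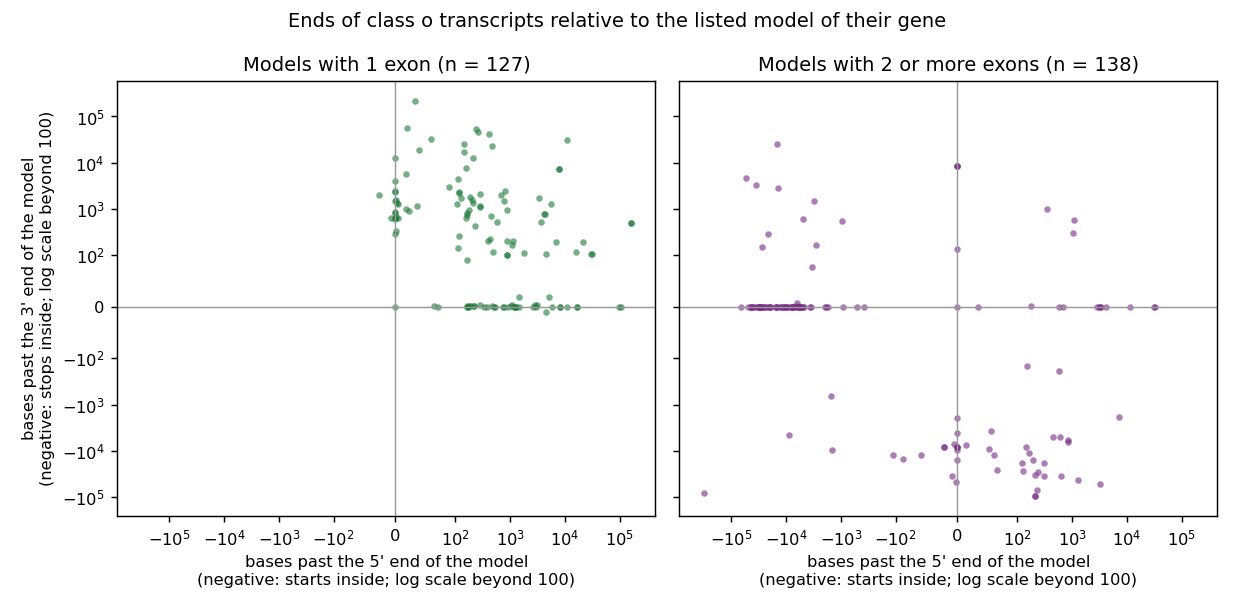
Ends of the 265 class o transcripts that shared exon bases with a listed model, in bases past the 5′ end (horizontal) and past the 3′ end (vertical), positive outside the model and negative inside, linear up to 100 bases and logarithmic beyond; each point is 1 transcript. Over 127 single-exon models 88 points lie past both ends, while over 138 multi-exon models 71 lie on the line of an equal 3′ end.

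Where no model was listed, 736 transcripts shared exon bases with class j transcripts of their gene, whose joined outline stood in for the gene. They met its first block in 275 cases (37.4%, 33.9% to 40.9%), an internal block in 526 (71.5%, 68.1% to 74.6%) and the last in 373 (50.7%, 47.1% to 54.3%). Past neither outer end were 639 (86.8%, 84.2% to 89.1%). An equal 3′ end was seen in 366 (49.7%) and an equal 5′ end in 145 (19.7%). A whole intron was shared with a class j transcript by 321 (43.6%, 40.1% to 47.2%).

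The largest gene of this group was ubc, the polyubiquitin gene, whose RNA encodes a row of ubiquitin units. Of its 80 class o transcripts, 79 lay on the plus strand of scaffold GL189149 between positions 1 and 2869, with 3 to 6 exons and a median length of 909 bases. All 79 began at position 1, the first base of the scaffold, so where these RNAs begin is not shown. All ended at the same base. They used 45 distinct introns, of which none was in every transcript and 17 were in a single one. A relative weight of 1 was held by 1 of the 80, against 34 of 37 at xpo5 and all 171 at tulp3. The locus also held 23 transcripts named LOC100216108 and 1 class j transcript of ubc.

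At xpo5, whose protein carries microRNA precursors out of the nucleus, 37 class o transcripts stood beside 25 of class j on scaffold GL173560, with a median of 31 exons. They had 4 starts and 8 ends and used 92 introns. At ppm1g, a protein phosphatase gene, 21 class o transcripts with a median of 5 exons and 511 bases stood beside 25 of class j, and 21 of their 25 introns were each in 1 transcript. At spdya, an activator of cyclin-dependent kinases first known from frog oocyte maturation, 19 class o transcripts of 14 to 19 exons began at 1 position. The locus held 6 class j transcripts and 29 outside annotated genes.

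The 692 transcripts that overlapped the span of a listed model without sharing an exon base were the longest, with a median of 26 exons (quartiles 12 and 55), a median span of 93831 bases and a median length of 4082 bases. In 592 (85.5%, 82.7% to 88.0%) neither transcript nor model lay within 1 intron of the other. In 100 (14.5%, 12.0% to 17.3%) the model lay within 1 intron of the transcript. No transcript lay within 1 intron of the model. These medians and shares count transcripts, of which LOC100135382, tulp3 and slc39a3 held 444. The shares were not taken by gene. Over the 692 a median of 2 exons of the transcript lay in introns of the model. The nearest exons were a median of 6695 bases apart, and 7 transcripts came within 100 bases. With the transcript of the smallest gap taken per gene, a choice that favours low values, the median was 1967 bases. In 685 (99.0%) the model had another locus identifier than the transcript. A part of the models was wide: 22 of 80 (27.5%, 18.9% to 38.1%) spanned at least 100 kb, against 233 of 4557 listed models (5.11%, 4.51% to 5.79%) and 1 of the 221 that shared exon bases with class o. The median span of the 80 was 9618.5 bases, below the 11741 bases of all listed models. A choice by overlap of spans favours wide models, so the share of wide ones follows in part from the choice.

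Most of these transcripts carried few names. LOC100135382 had 208, tulp3 166 and slc39a3 70, together 444 (64.2%). At tulp3, whose protein brings receptors into the primary cilium, 160 transcripts lay on the plus strand of scaffold GL172773 from 946230 to 1092721, with 12 to 67 exons and a median of 63. The listed model ran from 691754 to 978847 with 5 exons and 764 bases in all, and the nearest exons were at least 5838 bases apart. Most exons of these transcripts lay past the 3′ end of the model, with a median of 1 exon in its introns over the 166 tulp3 transcripts that overlap it. A second locus on the scaffold held 6 transcripts of 4 to 11 exons, from 685456 to 773106, near the other end of the model. The remaining 5 of the 171 transcripts named tulp3 lay on scaffold GL172917, where they overlapped no listed or class j transcript of tulp3. The gene had 10 class j transcripts. The 160 transcripts used 334 introns, 4 of them in every transcript and 149 in 1, with 16 starts and 9 ends.

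At slc39a3, a zinc transporter gene, all 70 class o transcripts were of this sort, at 5 loci of 2 scaffolds. The 4 listed models lay on 4 scaffolds and spanned 1093360 to 2371836 bases with 12 to 17 exons and exon lengths of 2044 to 2199 bases in all. The largest locus held 53 transcripts with a median of 65 exons on the minus strand of scaffold GL172734, from 1751435 to 2105194, inside the span of a model that ran from 1075211 to 2168570. On the same scaffold 3 more loci held 4, 2 and 1 transcripts elsewhere along that model, and 10 transcripts with a median of 19.5 exons lay on scaffold GL172742.

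At ifit5, named after an interferon-induced protein that binds RNA in humans, 31 transcripts held 9 to 103 exons, with a median of 86 exons and 12442 bases, on the plus strand of scaffold GL172863 from 915571 to 1010861. They lay inside the span of a 5-exon model of 1515 bases that spanned 584393 bases. The nearest exons were a median of 353 bases apart, and 1531 at most. Of the 114 distinct internal exons, 109 (95.6%, 90.1% to 98.1%) had a length divisible by 3. Over class o as a whole the share was 1341 of 3211 (41.8%, 40.1% to 43.5%), at the largest tulp3 locus 119 of 294 (40.5%) and at the largest slc39a3 locus 48 of 96.

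**Figure D4:**
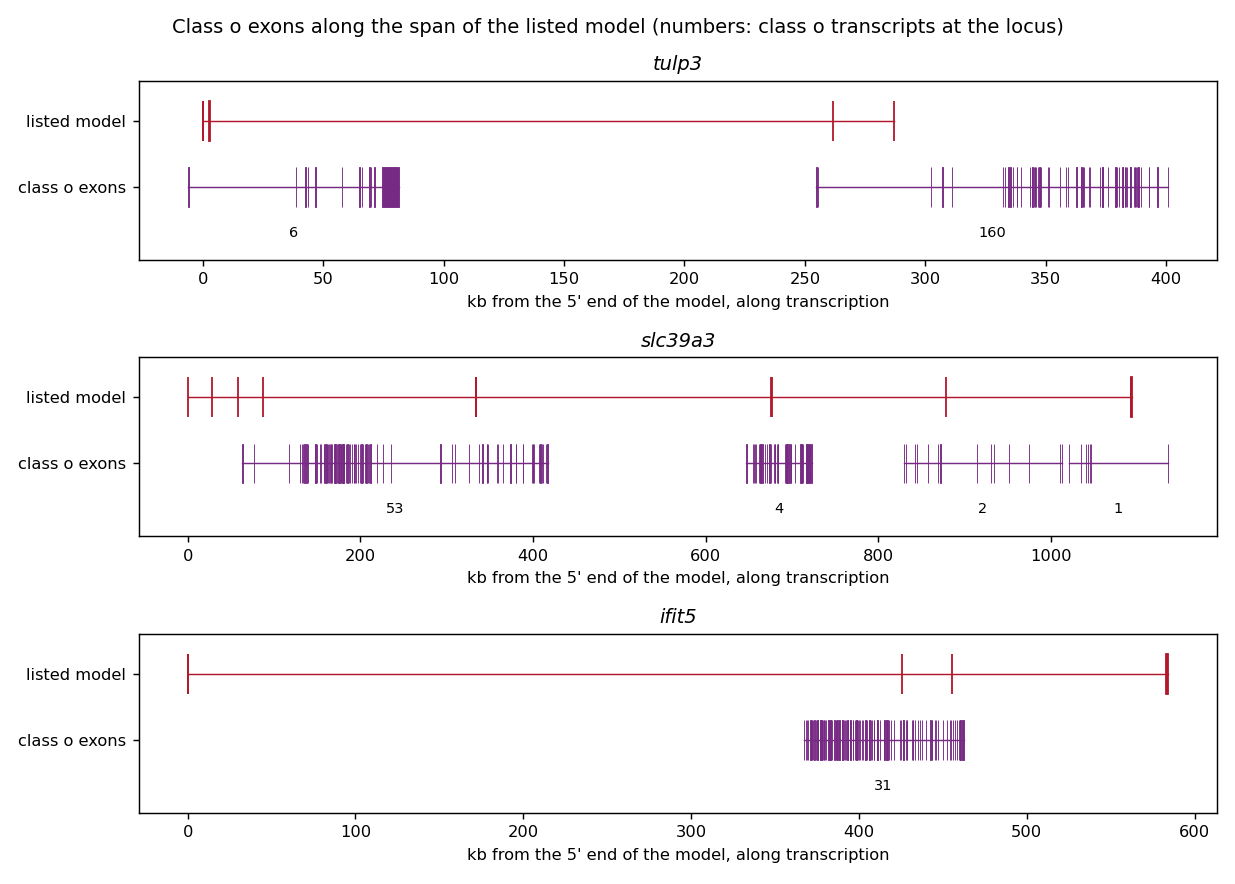
Exons of the listed model (red) and joined exons of the class o transcripts (purple) at tulp3, slc39a3 and ifit5, in kilobases from the 5′ end of the model along transcription; the number under each locus counts its class o transcripts. The 53 transcripts of slc39a3 and the 31 of ifit5 formed dense exon clusters within the span of a model with widely spaced exons. Each of these transcripts had at least 1 model exon inside its introns. Most exons of the 160 transcripts of tulp3 lay past the 3′ end of the model.

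Smaller groups also shared no exon base with their model. At ypel2, 28 transcripts with a median of 26 exons lay at one end of a 2-exon model of 372 bases that spanned 475401 bases, and 6 more surrounded a 153-base model on another scaffold. The name had 7 listed models and own-strand transcripts on 8 scaffolds. At dirc2, called slc49a4 in the RefSeq table and known as a lysosomal membrane transporter, 26 transcripts lay at 3 loci of 3 scaffolds beside models of 3 to 6 exons. LOC100135382 differed, since its 208 transcripts came from 1 locus of 397168 bases on scaffold GL173192 that contained the whole 100057-base model. In 10 of them the model lay within 1 intron. Over all genes with a class o transcript, 201 of 800 (25.1%, 22.2% to 28.2%) had own-strand transcripts on at least 2 scaffolds, against 515 of 7529 genes without one (6.84%, 6.29% to 7.43%). Own-strand transcripts here include class o itself. A class o transcript on a scaffold of its own thus raises the first share and cannot raise the second.

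For the 622 transcripts without a listed or class j transcript of their gene in the span, the name rests on the annotation alone. The gene names with most were LOC100127682 with 90, surf4.2 with 52 and agpat3 with 47. At surf4.2, whose protein is a cargo receptor of the endoplasmic reticulum, the 52 transcripts had a median of 18 exons and shared their locus on scaffold GL172921 with 164 transcripts named ptma, the prothymosin gene. The listed surf4.2 model lay on scaffold GL177045. At agpat3, an acyltransferase gene of phospholipid synthesis, the 47 transcripts had a median of 15 exons, 36 starts and 1 end. At man2a2, an N-glycan processing mannosidase gene, 16 transcripts lay in the locus of 7 class j transcripts of the gene without overlapping the span of any. For fam120c, with 20, and plxna3, a semaphorin receptor gene with 16, every assembled transcript that bore the gene name on the own strand was of class o. Their loci also held 15 and 11 transcripts outside annotated genes. By gene name, class o was the only assembled own-strand class for 163 of the 800 genes (20.4%, 17.7% to 23.3%).

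At sec22l2, called sec22a in the RefSeq table and a member of the Sec22 family of vesicle traffic proteins, a class j transcript lay in the span without a shared exon base. Its 22 class o transcripts had 10 to 13 exons and a median length of 6098 bases, and its listed model had 86 bases on another scaffold.

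**Figure D5:**
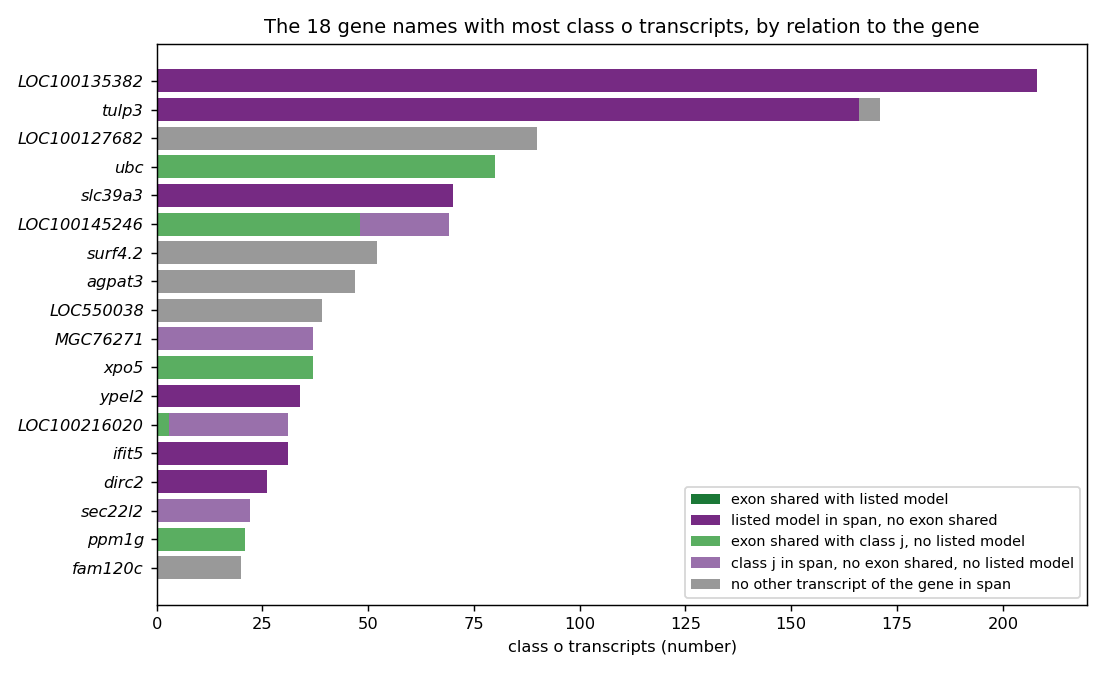
Number of class o transcripts for the gene names with most, stacked by the relation of the transcript to its gene. The bars of LOC100135382, slc39a3, ypel2, ifit5 and dirc2 consist of transcripts in the span of a listed model without a shared exon base. None of the names shown has a transcript that shares exon bases with a listed model.

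Class o transcripts were concentrated in few genes. Of the 800 genes, 535 (66.9%, 63.5% to 70.0%) had 1, while 31 genes with at least 10 held 1257 transcripts (48.3%) and the 10 largest held 863 (33.1%). Of the 856 loci, 204 (23.8%, 21.1% to 26.8%) held class o transcripts alone, with 833 of the transcripts (32.0%), and 558 (65.2%) also held a class j or listed transcript of the gene. Loci with 2 or more annotated genes numbered 58 (6.78%, 5.28% to 8.66%). Exon bases of another annotated gene were shared by 379 transcripts (14.6%, 13.3% to 16.0%), and those of both the own and another gene by 108 (4.15%).

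The widest joins of 2 or more gene names included the Hox cluster genes that pattern the body axis. A 4-exon transcript of 4365 bases, spanning 81109 bases of the plus strand of scaffold GL172862, was named for hoxc8 and also shared exon bases with hoxc9. A 3-exon transcript spanning 31701 bases joined the zinc finger genes znf33a and znf519, and a 5-exon transcript spanning 26494 bases joined cyp2a13, a cytochrome P450 gene, and MGC69416. The widest join, 258677 bases on scaffold GL173373, linked LOC100135371 and LOC100170429, and on the same scaffold an 8-exon transcript of LOC733712 shared exon bases with 4 other names.

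Of all 8329 genes with an own-strand transcript, 800 (9.60%, 8.99% to 10.3%) had a class o transcript, and gene families were read against that share. Genes named as zinc finger proteins had one in 18 of 83 (21.7%, 14.2% to 31.7%), led by znf184 with 14 transcripts, znf568 with 8 and znf208 with 7. Developmental transcription factors had one in 24 of 137 (17.5%, 12.1% to 24.7%). This list, drawn by symbol pattern, also took tbxas1 and gatad1, which are not such factors. Its leading genes were sox18 with 9, hoxc8 with 6 and sox11 with 6. The name sox18 had 8 listed models and own-strand transcripts on 9 scaffolds. Of its 9 class o transcripts, on 3 scaffolds, only 1 shared exon bases with a listed model. Every assembled transcript that bore the name sox11, sox3 or sox4 on the own strand was of class o. These genes act in the nervous system, and the last 2 of the names were picked with their values in view. Translation factors had one in 7 of 51 (13.7%), with 9 transcripts at eif3a, an initiation factor subunit gene, and solute carriers in 18 of 146 (12.3%), where slc39a3 alone held 70 of 99 transcripts, followed by slc35a4 with 5 and slc35e2b with 3.

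The signalling list had one in 7 of 68 genes (10.3%), led by the Wnt receptor genes fzd7 with 5 transcripts, fzd2 with 3 and fzd1 with 2. The pattern of this list also took jagn1. Chromatin modifiers (3 of 31, 9.68%), ribosomal proteins (7 of 76, 9.21%) and small GTPases with vesicle traffic (14 of 153, 9.15%) lay close to the share of all genes. In the ribosomal list rps15a had 3 transcripts and rpl5 2, and in the chromatin list chd9 had 3. Among vesicle traffic genes, arf6 and rab11fip4 followed sec22l2 with 3 each.

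Lower shares were seen for cell cycle and replication (7 of 87, 8.05%), led by the inhibitor gene cdkn2d with 6 transcripts, and for oxidative phosphorylation and ATPases (8 of 109, 7.34%), with 4 at cox6b1. Splicing proteins (5 of 74, 6.76%) had 2 transcripts each at hnrnpa0 and prpf4, and the extracellular matrix list (2 of 30, 6.67%) had 12 at col14a1 and 1 at col3a1. The proteasome and ubiquitin list stood at 9 of 135 (6.67%), with 3 at psmb4. Cytoskeletal genes (4 of 61, 6.56%) had 13 at tuba4a, an alpha tubulin gene, and mitochondrial ribosomal proteins had 1 transcript in 2 of 49 genes (4.08%). The intervals of the zinc finger and transcription factor lists lay above 9.60% and those of the other 13 lists included it. No test was made.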

How the data were processed

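Polyadenylated RNA of 40 libraries was made into 1 pooled assembly by the authors. Bowtie, TopHat and Cufflinks were used, per the submitters' processing notes. Their versions, the genome build and the annotation were not given in the sources used here. The deposited gene models give scaffold, strand, exon ends and class code, and positions are printed counted from 1. The deposited column headed FPKM is a score that never exceeds 1, and is called the relative weight; the deposited coverage is a signal and not read depth. Neither is an abundance, no column belongs to a library, and the planned comparison of stages was not run.

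Exon positions were compared in Python 3.11.15 with a minimum of 1 shared base and 1 base past an end. Shares carry Wilson intervals at 95% confidence from scipy 1.17.1. The comparison was tested on simulated gene models. Where a gene had several listed models, the one sharing most exon bases was used, or without shared bases the one with the widest overlap of spans. The RefSeq gene table served for names and matched 785 of 800 (98.1%); no genome sequence was used here.

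Named genes were the 15 with a full symbol and most class o transcripts, the 5 with the longest extension past each end, the 3 with most per list of 15 lists by symbol pattern, and up to 5 joins by span; some genes that the rule takes are not reported here. Genes outside the rule are said to be picked with their values in view or have provisional symbols. Members and lists were chosen with earlier results of these data known. Alternatives were a relative weight of 1, 1 transcript per gene, at least 2 exons, no loci of several genes, at least 50 shared or 100 extending bases, and the outline of listed and class j transcripts of the gene in place of the model. Models from the annotation alone, leaving out 3 genes, and every alternative for transcripts without a shared exon base were added after seeing the data.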

Additional observations from a re-analysis of the deposited data

How the results depend on the processing

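Of 68 alternative values, 42 stayed within the interval of the reported value (counts: within 1.5 times) and 26 moved; the cause of each move was not tested. Among transcripts of relative weight 1, the first exon was met by 50.8% and the last by 44.3%, with overlapping intervals, so their order is uncertain. In that set the median rose to 7 exons and 2288 bases, and 1.09% had 1 exon. It kept 494 genes, and 34.0% of its transcripts overlapped a model span without a shared base. With the joined outline of listed and class j transcripts of the gene in place of the model, which adds the transcripts that share exons with class j, internal blocks were met by 64.2% and the last by 51.0%, 20.3% passed the 5′ end, 15.9% the 3′ end and 73.4% neither, and 34.6% shared an intron. With at least 100 bases required, 50.2% passed the 5′ end and 38.1% the 3′ end. With models from the annotation alone these were 75.1% and 61.1%, and 11.4% passed neither. With 1 transcript per gene the medians were 2 exons and 1254 bases, 6.50% had 1 exon and 8.88% overlapped a model span without a shared base. Without LOC100135382, tulp3 and slc39a3 the medians were 3 exons and 1816 bases. In that set 11.5% overlapped a model span without a shared base, against 26.6% with these genes included. Without loci of several genes 22.1% did so. No paired analysis was possible because no column belongs to a library. Depth is unknown, and annotated models other than those listed were not analysed here.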

Other observations

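LOC100127682, with 90 class o transcripts, lay on a scaffold named GL999999, between positions 1 and 17609. The catalogue held 403 transcripts there: besides the 90, all on the plus strand, 137 outside annotated genes and 176 antisense ones lay on the minus strand. The 90 had 2 to 6 exons, a median length of 15407 bases, 19 starts and 1 end, and of their 155 introns 114 were in a single transcript and none in every one. The median deposited coverage was 9.83 at this locus, against 1.33 over all class o transcripts. The listed model of the name lay on scaffold GL173861 with 12 exons. The width is close to that of the frog's mitochondrial genome; whether the scaffold is that genome was not tested.

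LOC550038, called znf609 in the RefSeq table, had 39 class o transcripts of 7 to 11 exons with a median length of 10634 bases, 19 starts and 1 end. Of its 21 distinct internal exons 1 had a length divisible by 3. MGC76271 had 37 transcripts of 2 to 5 exons within 5883 bases of scaffold GL173864, with a median length of 5513 bases, 2 starts and 1 end.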
